A study of Mus musculus with 28 samples.

Results

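Klf2 encodes a zinc finger transcription factor of resting lymphocytes. Klf2, S1pr1, Ccr7, Il7r, Ly6c1, Gpr183 and Il6ra were chosen by their gene symbols, with earlier results of these data known. Of these 7 genes, 6 had a row among the 13103 genes of the table, and Il7r was not analysed here. All 6 were among the 12142 genes that passed the filter on low values and were tested. Their levels and differences are given over regulatory T cells (Tregs) of mouse tumors and spleens sorted by surface OX40, which is encoded by Tnfrsf4 and costimulates T cells.

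All mice were of the Foxp3-GFP strain, in which green fluorescent protein marks cells that express Foxp3, and all carried B16 cells, a mouse melanoma line, placed in the skin of the right side. Tumors and spleens were taken after 7 to 10 days, and the spleens are therefore those of tumor-bearing mice. Going by the mouse numbers in the sample titles, there were 4 mice with both an OX40plus and an OX40minus sample from tumors, and 3 with both from spleens. Per the labels, GFP-positive cells were gated through CD45, CD3 and CD4, with OX40plus denoting high and OX40minus low staining, and the sources used here give neither the age of the mice nor the purity of the sort.

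Both libraries of a mouse and gate, which differ little beyond sampling noise, were taken as 1 sample, which gives 14 samples of 22.4 M to 29.6 M estimated counts. Levels are in CPM, the counts of a gene scaled to a common library size. In spleen OX40plus Tregs the sample of mouse 3 stood apart, with a median chi-square per gene of 4.45 to 6.29 against the other mice, which gave 1.43 to 1.49 among themselves. In tumor OX40plus Tregs mouse 4 gave 6.75 to 13.0 against the others, which gave 4.61 to 6.64 among themselves. In spleen OX40minus Tregs mouse 1 gave 2.76 to 3.75 against the others, which gave 1.42 to 1.48. Tnfrsf4 followed the gates within each tissue, but tumor OX40minus Tregs had more of it than spleen OX40plus Tregs (limma, log2 fold change 1.48 ± 0.12 SE, adjusted p = 3.30e-08). Its gate difference was smaller in tumors than in spleens (tumor minus spleen -0.69 ± 0.17, adjusted p = 0.0160). Tnfrsf4 was at 3357 ± 203 CPM in tumor OX40plus Tregs, 1950 ± 152 in tumor OX40minus Tregs, 704 ± 111 in spleen OX40plus Tregs and 253 ± 40.9 in spleen OX40minus Tregs (mean ± SD). The 7 Treg and T cell markers were all present, with summed levels of 8408 to 8943, 7547 to 8073, 4178 to 4492 and 3433 to 3778 CPM in the same order. Foxp3, the defining transcription factor of Tregs, averaged 58.5 ± 3.99, 41.9 ± 6.60, 64.5 ± 56.4 and 32.5 ± 8.86 CPM. Its spleen OX40plus mean rested on mouse 3, with 129.6 CPM against 32.1 and 31.8 CPM in mice 1 and 2, which lay within the range of the spleen OX40minus samples (23.3 to 41.0 CPM).

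KLF2 keeps T cells in a resting, recirculating state and is known to drive S1pr1. T cell receptor, PI3K and AKT signals silence it, and FOXO1 raises it. S1PR1 senses sphingosine 1-phosphate, which is abundant in blood and lymph, and carries T cells out of lymphoid tissue. CCR7 directs them into lymph nodes and the T cell zone along CCL19 and CCL21. GPR183 (EBI2) follows oxysterols such as 7α,25-dihydroxycholesterol to the edge of the B cell follicle. IL6RA is the ligand-binding chain of the interleukin-6 receptor, and IL7R binds interleukin-7. LY6C1 is a surface antigen of the LY6 family found on some T cells.

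Promoters are shown for the members whose tissue differences the results turn on, Klf2 and Il6ra, for Gpr183, whose mean was higher in tumors in both gates, and for the 1 further promoter that held the letters of a KLF site. The windows run from 250 bases before to 50 bases after the annotated start, are from RefSeq on GRCm38.p6, and read 5′ to 3′ on the gene's strand. Capitals mark matches, on either strand, to CACCC (the core that KLF proteins bind), GTAAACA (the FOXO core) or CTA and TAG with any 4 bases between them (the MEF2 core).
Klf2, chr8:72318812-72319111, plus strand: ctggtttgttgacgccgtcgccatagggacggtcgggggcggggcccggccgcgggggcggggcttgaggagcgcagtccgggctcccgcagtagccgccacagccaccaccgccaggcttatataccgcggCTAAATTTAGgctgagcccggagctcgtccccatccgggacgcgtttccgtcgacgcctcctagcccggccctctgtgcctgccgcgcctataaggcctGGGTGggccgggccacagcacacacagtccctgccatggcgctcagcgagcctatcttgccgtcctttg
Il6ra, chr3:89913147-89913446, minus strand: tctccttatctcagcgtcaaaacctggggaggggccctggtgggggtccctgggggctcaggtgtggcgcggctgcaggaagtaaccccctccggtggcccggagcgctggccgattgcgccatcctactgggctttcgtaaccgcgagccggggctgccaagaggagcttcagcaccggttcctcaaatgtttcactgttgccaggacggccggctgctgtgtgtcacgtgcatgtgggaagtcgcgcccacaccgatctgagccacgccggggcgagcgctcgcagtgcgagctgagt
Gpr183, chr14:121965144-121965443, minus strand: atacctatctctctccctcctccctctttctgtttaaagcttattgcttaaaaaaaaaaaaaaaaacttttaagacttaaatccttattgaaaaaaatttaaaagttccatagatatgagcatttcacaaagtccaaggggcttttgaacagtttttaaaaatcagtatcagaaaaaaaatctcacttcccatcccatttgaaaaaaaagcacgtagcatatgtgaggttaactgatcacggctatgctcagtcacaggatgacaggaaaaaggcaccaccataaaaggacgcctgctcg
Ly6c1, downstream of its 2 annotated starts, chr15:75048614-75048913, minus strand: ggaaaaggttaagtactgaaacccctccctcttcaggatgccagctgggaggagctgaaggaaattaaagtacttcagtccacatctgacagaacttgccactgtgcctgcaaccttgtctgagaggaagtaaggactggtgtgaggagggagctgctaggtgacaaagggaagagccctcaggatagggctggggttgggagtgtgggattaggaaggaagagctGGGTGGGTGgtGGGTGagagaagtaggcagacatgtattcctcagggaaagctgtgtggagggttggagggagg

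Promoter entries were found for 5 of the 7 genes, Klf2, Il6ra, Gpr183, Il7r and Ly6c1. The Klf2 window held a MEF2 core, CTAAATTTAG, that begins 118 bases before the start, and a CACCC match on the opposite strand 19 bases before it. MEF2 factors act on Klf2 downstream of the kinase ERK5. Of 32851 mouse promoter windows of this length, 3.69% held a MEF2 core, 57.5% a CACCC match and 3.65% a FOXO core. The downstream Ly6c1 window held 3 CACCC matches, which begin 24, 20 and 13 bases before the start. The first overlaps the second by its last base, and 25.7% of windows held at least 2. None of the 3 motifs was in the windows of Il6ra, Gpr183, Il7r or the upstream Ly6c1 start. Guanine and cytosine made up 69.3% of the Klf2 window and 66.0% of the Il6ra window, but 35.3% of the Gpr183 window, with a median of 52.7% over all windows. A match is a run of letters, and no binding was measured.

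Klf2 (GRCm38 chromosome 8, 72319033 to 72321656, plus strand) was lower in OX40plus than in OX40minus Tregs of both tissues and lower in tumors than in spleens in both gates. Its level was 54.2, 35.2, 56.8 and 43.7 CPM in tumor OX40plus Tregs of mice 1 to 4, against 242, 282, 315 and 304 CPM in tumor OX40minus Tregs. No tumor sample of the OX40plus gate came near any of the other gate. In spleens it was 339, 338 and 477 CPM in OX40plus Tregs of mice 1 to 3, against 906, 736 and 840 CPM in OX40minus Tregs, and the groups were again separate. Over all tested genes the gates did not overlap for 33.8% in tumors and for 32.3% in spleens. Klf2 was 6.09-fold lower in tumor OX40plus Tregs (limma, log2 fold change -2.61 ± 0.15 SE, with an adjusted p = 8.14e-09) and 2.17-fold lower in spleens (-1.12 ± 0.17, adjusted p = 5.83e-04). The log2 difference within single mice lay between -3.0 and -2.16 in tumors and between -1.42 and -0.82 in spleens, without overlap between the tissues. The OX40 difference was larger in tumors by 1.49 ± 0.23 on the log2 scale (tumor minus spleen -1.49, adjusted p = 8.46e-04). Without the spleen OX40plus sample of mouse 3, the one with 477 CPM, it was -1.32 (adjusted p = 0.00214), and the spleen difference was -1.28.

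Between tissues, Klf2 was 8.14-fold lower in tumor than in spleen OX40plus Tregs (-3.02 ± 0.16, adjusted p = 1.58e-10) and 2.90-fold lower in tumor than in spleen OX40minus Tregs (-1.54 ± 0.16, adjusted p = 5.79e-07). Its group means ran from 47.5 ± 9.98 CPM in tumor OX40plus Tregs through 285 ± 32.3 in tumor OX40minus and 385 ± 79.7 in spleen OX40plus to 827 ± 85.9 in spleen OX40minus Tregs (SD, n = 4, 4, 3 and 3). The mean of tumor OX40plus Tregs was 17.4-fold below that of spleen OX40minus Tregs. The middle groups were neighbours: tumor OX40minus Tregs were lower than spleen OX40plus Tregs by a small margin (-0.42 ± 0.16, adjusted p = 0.0348). That call was lost without the spleen OX40plus sample of mouse 3 (-0.25, adjusted p = 0.204), without the tumor OX40minus sample of mouse 1 (adjusted p = 0.0995) or mouse 2 (adjusted p = 0.0601), and without the mean-variance trend (adjusted p = 0.0698). Each of the other 4 Klf2 contrasts and the test between tissues was called under every alternative run.

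**Figure D1:**
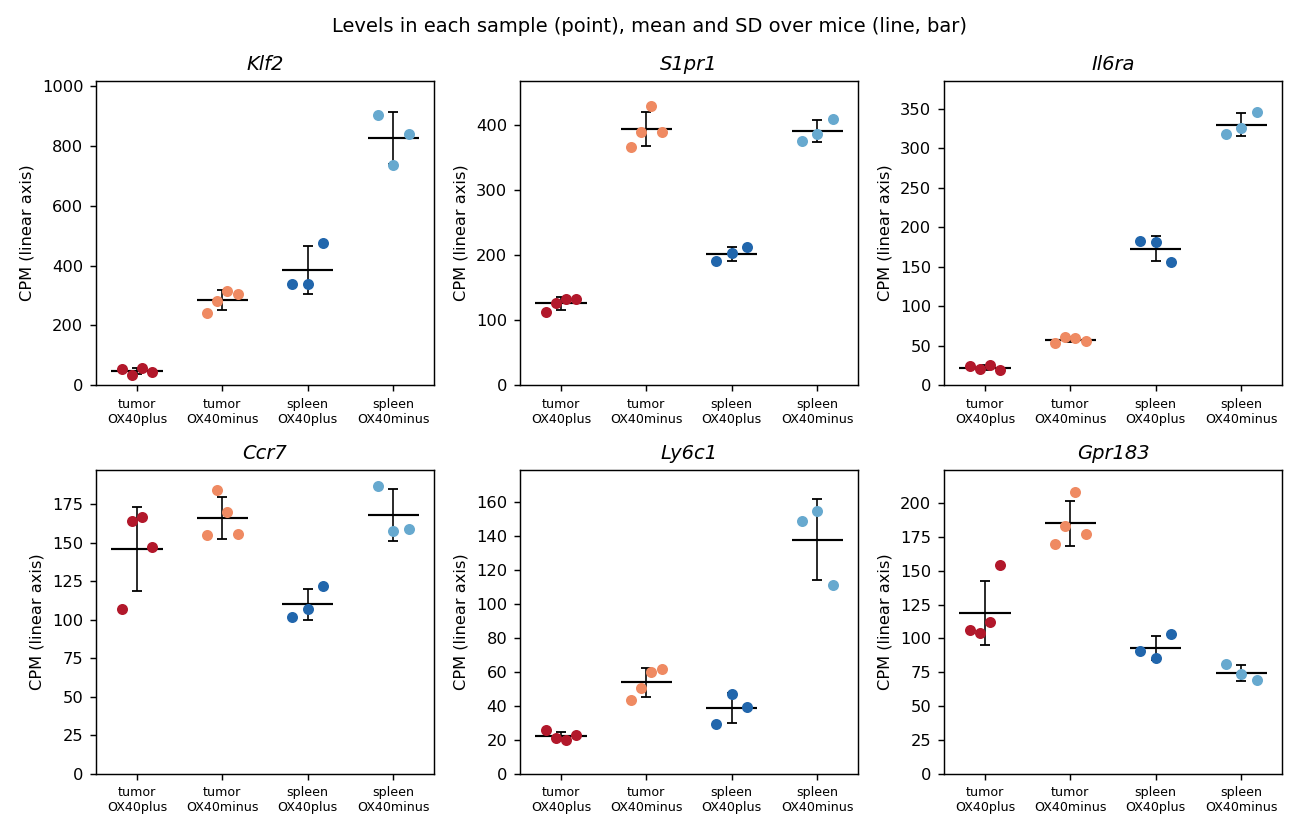
CPM of the 6 genes (vertical axes, linear, from 0) in each of the 14 samples (points), with group means (horizontal lines) and SD over mice (bars). From left to right the groups are the OX40plus and OX40minus gates of tumors, then those of spleens. Klf2 and Il6ra climb in that order, S1pr1 follows the gate, and Gpr183 is highest in tumor OX40minus Tregs.

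S1pr1 (chromosome 3, 115710433 to 115715072, minus strand), the egress receptor and a known KLF2 target, followed the OX40 gate in both tissues. It was at 112, 127, 133 and 133 CPM in tumor OX40plus Tregs, against 366, 389, 430 and 389 CPM in tumor OX40minus Tregs. In spleens it was at 191, 204 and 212 CPM in OX40plus Tregs, against 376, 387 and 409 CPM in OX40minus Tregs. The mice of a group lay close together and the gates did not overlap in either tissue. S1pr1 was 3.12-fold lower in OX40plus Tregs of tumors (-1.64 ± 0.08, adjusted p = 1.41e-09) and 1.93-fold lower in those of spleens (-0.95 ± 0.09, adjusted p = 7.45e-06). The drop was larger in tumors by 0.69 ± 0.12 on the log2 scale (tumor minus spleen -0.69, adjusted p = 0.00171).

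Unlike Klf2, S1pr1 showed no tissue difference in the OX40minus gate that passed the test. The groups averaged 394 ± 26.5 CPM in tumors and 391 ± 16.4 CPM in spleens and overlapped, with a log2 difference of 0.01 and a 95% interval from -0.17 to 0.19 (adjusted p = 0.938). In the same gate the Klf2 interval was -1.88 to -1.20, which does not meet that of S1pr1. In the OX40plus gate S1pr1 was 1.60-fold lower in tumors (126 ± 10.0 CPM) than in spleens (202 ± 10.5 CPM, -0.68 ± 0.08, adjusted p = 2.44e-06). Tumor OX40minus Tregs therefore had more S1pr1 than spleen OX40plus Tregs (0.96 ± 0.08, adjusted p = 7.16e-08), while Klf2 was not higher there.

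Il6ra (chromosome 3, 89864059 to 89913196, minus strand), which lets a cell bind interleukin-6, had the same order of groups as Klf2. Its level was 23.6, 19.8, 25.3 and 19.5 CPM in tumor OX40plus Tregs, against 53.2, 60.8, 59.8 and 56.3 CPM in tumor OX40minus Tregs. In spleens it was 183, 181 and 156 CPM in OX40plus Tregs, against 318, 326 and 346 CPM in OX40minus Tregs. No pair of the 4 groups overlapped. Of all tested genes, 64.2% did not overlap between the tissues in the OX40plus gate and 64.6% in the OX40minus gate. Il6ra was 2.62-fold lower in OX40plus Tregs of tumors (-1.39 ± 0.10, adjusted p = 6.45e-08) and 1.91-fold lower in those of spleens (-0.93 ± 0.11, adjusted p = 7.12e-05). Tumor Tregs had 7.89-fold less than spleen Tregs in the OX40plus gate (-2.98 ± 0.11, adjusted p = 1.93e-12) and 5.75-fold less in the OX40minus gate (-2.52 ± 0.11, adjusted p = 1.42e-11), and tumor OX40minus Tregs 3.01-fold less than spleen OX40plus Tregs (-1.59 ± 0.11, adjusted p = 3.29e-09). The tissue difference of Il6ra in the OX40minus gate exceeded that of Klf2, with intervals of -2.75 to -2.30 and -1.88 to -1.20. Whether its OX40 difference differed between tissues depended on the scaling and on single samples. It did not pass with all samples as deposited (-0.46 ± 0.15, adjusted p = 0.0613), and it passed with the CPM of each sample scaled to the same total (-0.53, adjusted p = 0.0401) and without tumor OX40plus mouse 1 (adjusted p = 0.0458) or mouse 3 (0.0337) or spleen OX40plus mouse 3 (0.0373). An antisense gene, Gm42809, overlaps Il6ra, and no source used here says whether reads were counted by strand.

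Ccr7 (chromosome 11, 99144196 to 99155077, minus strand), the lymph node homing receptor, was the 1 of the 6 genes whose OX40 difference in tumors did not pass the test. It was at 107, 164, 167 and 147 CPM in tumor OX40plus Tregs, against 155, 184, 170 and 156 CPM in tumor OX40minus Tregs. Mouse 1 of the OX40plus gate was lowest and the others lay within or near the range of the OX40minus gate. The log2 difference was -0.21 ± 0.12 with a 95% interval from -0.47 to 0.06 (adjusted p = 0.209). In spleens Ccr7 was at 102, 107 and 122 CPM in OX40plus Tregs, against 187, 158 and 159 CPM in OX40minus Tregs. Those groups did not overlap and the difference was called (-0.61 ± 0.14, adjusted p = 0.0129), but not without mouse 1 of the OX40plus gate (-0.55, adjusted p = 0.0682) or of the OX40minus gate (-0.53, adjusted p = 0.0655). The difference between the tissues was not called (0.40 ± 0.19, adjusted p = 0.192), except without tumor OX40plus mouse 1 (0.54, adjusted p = 0.021).

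In the OX40plus gate Ccr7 averaged 146 ± 27.4 CPM in tumors and 110 ± 10.3 CPM in spleens (0.39 ± 0.13, adjusted p = 0.0179), with overlapping samples. This call was lost when either of 2 tumor samples (mouse 2 or 3) or 2 spleen samples (mouse 1 or 2) was left out, with adjusted p between 0.0525 and 0.0767, when the CPM of each sample were scaled to the same total (0.0592) and when the 2 groups were fitted alone (0.0505). In the OX40minus gate the means were 166 ± 13.6 CPM in tumors and 168 ± 16.8 CPM in spleens (-0.01, 95% interval -0.30 to 0.27, adjusted p = 0.943). Between tumor OX40minus and spleen OX40plus Tregs the difference was 0.60 ± 0.13 (adjusted p = 0.00123).

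Ly6c1 (chromosome 15, 75044018 to 75048830, minus strand) was lower in the OX40plus gate of both tissues. It was at 25.6, 21.3, 20.02 and 22.6 CPM in tumor OX40plus Tregs, against 43.7, 50.5, 59.9 and 61.9 CPM in tumor OX40minus Tregs. In spleens it was at 29.6, 47.0 and 39.4 CPM in OX40plus Tregs, against 149, 155 and 111 CPM in OX40minus Tregs. The gates were separate in each tissue, with the widest spread in the spleen. It was 2.40-fold lower in OX40plus Tregs of tumors (-1.26 ± 0.16, adjusted p = 1.46e-05) and 3.60-fold lower in those of spleens (-1.85 ± 0.18, adjusted p = 1.12e-05). Its estimate, with that of Ccr7, was larger in spleens than in tumors, a difference not called for either (Ly6c1 0.59 ± 0.24, adjusted p = 0.133). Ly6c1 was lower in tumors than in spleens in the OX40plus gate (-0.77 ± 0.17, adjusted p = 8.44e-04) and in the OX40minus gate (-1.36 ± 0.17, adjusted p = 4.20e-06). Tumor OX40minus Tregs had more than spleen OX40plus Tregs (0.49 ± 0.17, adjusted p = 0.0204), a call lost without tumor OX40minus mouse 3 (0.0558) or mouse 4 (0.0598) or spleen OX40plus mouse 1 (0.147). The longest coding transcripts of Ly6c1 and its neighbour Ly6c2 were 97.6% identical over 822 aligned bases, so how reads were split between the pair is uncertain. Ly6c2 was at 28.5 CPM in tumor OX40plus and 62.0 CPM in tumor OX40minus Tregs (-1.11 ± 0.18, adjusted p = 1.91e-04), and at 79.4 CPM in spleen OX40plus and 126 CPM in spleen OX40minus Tregs (-0.65 ± 0.21, adjusted p = 0.0769).

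Gpr183 (chromosome 14, 121952551 to 121965195, minus strand), the oxysterol receptor, had a higher mean in tumors than in spleens in both gates, which held for no other of the 6 genes. It was at 106, 104, 112 and 154 CPM in tumor OX40plus Tregs, against 170, 183, 208 and 177 CPM in tumor OX40minus Tregs. Mouse 4 of the OX40plus gate stood above its group but below every OX40minus sample. In spleens it was at 90.4, 85.4 and 103 CPM in OX40plus Tregs, against 81.1, 73.4 and 69.3 CPM in OX40minus Tregs, so that the gates were in the opposite order. Gpr183 was 1.57-fold lower in OX40plus Tregs of tumors (-0.65 ± 0.12, adjusted p = 4.33e-04, and -0.78 without mouse 4). The spleen difference was 0.31 ± 0.14 with a 95% interval from 0.02 to 0.60 and was not called over all genes (adjusted p = 0.226). The OX40 difference itself differed between the tissues (-0.96 ± 0.18, adjusted p = 0.00307).

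In the OX40minus gate Gpr183 was 2.47-fold higher in tumors than in spleens (185 ± 16.5 and 74.6 ± 6.02 CPM, 1.31 ± 0.13, adjusted p = 2.63e-07). In the OX40plus gate the values were 119 ± 23.7 CPM in tumors and 92.8 ± 8.94 CPM in spleens (0.34 ± 0.13, adjusted p = 0.0268). That call was lost with the mouse number as a block across tissues (0.29, adjusted p = 0.0648), without tumor OX40plus mouse 4 (0.21, adjusted p = 0.0702) or spleen OX40plus mouse 1 (0.0752) or mouse 2 (0.105), with the rep2 libraries alone (0.0865), in a fit of the 2 groups alone (0.0669) and with the CPM of each sample scaled to the same total (0.0879). Tumor OX40minus Tregs had 1.99-fold more than spleen OX40plus Tregs (0.99 ± 0.13, adjusted p = 5.89e-06). The gene lies within Ubac2, which runs on the other strand, and reads of the pair could be mixed if strand was not used.

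**Figure D2:**
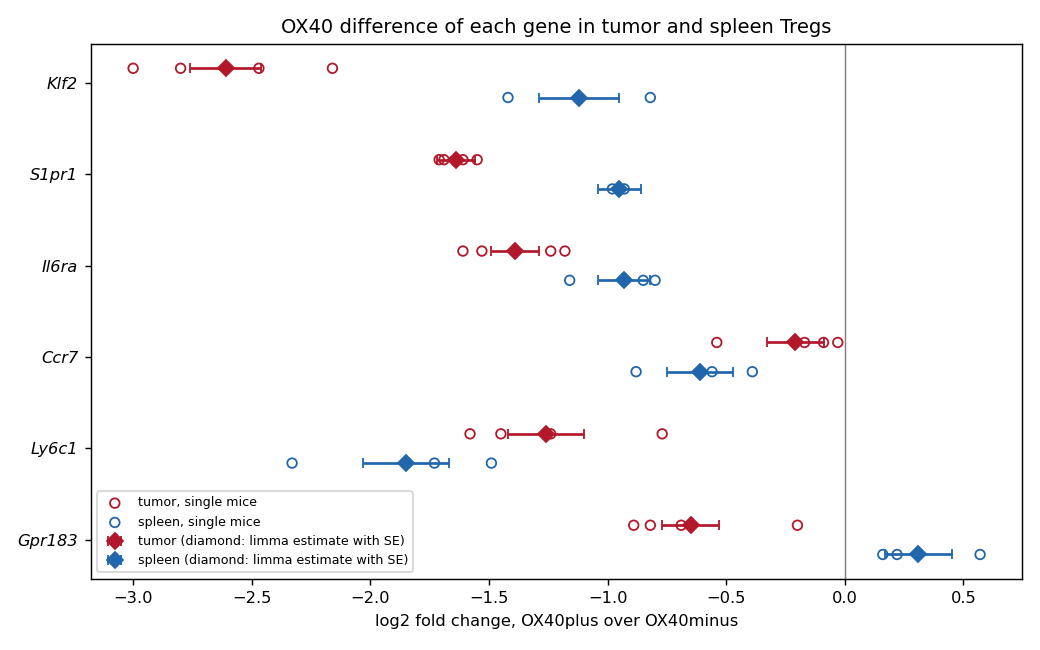
Log2 fold change of OX40plus over OX40minus Tregs (horizontal axis) for the 6 genes, in tumors (red) and spleens (blue). Diamonds with bars are limma estimates with SE, open circles the difference in single mice. All 4 tumor mice lie below 0 for each gene, and all 3 spleen mice do for each gene except Gpr183, for which they lie above it.

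Of the 6 genes, 5 were called lower in tumor OX40plus than in tumor OX40minus Tregs, where 20.4% of all tested genes were called lower, 19.1% higher and 39.6% in either direction. In spleens 5 were also called lower, where 3.72% of all tested genes were called lower, 4.55% higher and 8.28% in either direction. The median log2 fold change of the 6 was -1.33 in tumors and -0.94 in spleens, beside -0.07 and 0.01 over all tested genes. Because the 6 were chosen with earlier results of these data known, these counts and medians are no independent test of them. S1pr1, Klf2, Ly6c1 and Il6ra were called in both tissues, Gpr183 in tumors and Ccr7 in spleens. The tumor difference was called below the spleen difference for 3 genes, Klf2, S1pr1 and Gpr183, where 6.61% of all tested genes were called lower, 4.78% higher and 11.4% in either direction. Leaving out tumor OX40plus mouse 1 raised the number of genes called in that test to 5. Without tumor OX40plus mouse 4 the counts were 5 in tumors and 3 in the test between tissues, and without spleen OX40plus mouse 3 they were 5 in spleens and 4 in that test. Without spleen OX40minus mouse 1 they were 4 in spleens, where Ccr7 was lost, and 3 in that test.

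Between the tissues the calls were mixed. In OX40plus Tregs 4 genes were called lower in tumors (Klf2, Il6ra, Ly6c1 and S1pr1) and 2 higher (Ccr7 and Gpr183), where 34.6% of all tested genes were called lower, 31.1% higher and 65.7% in either direction. In OX40minus Tregs 3 were called lower (Il6ra, Klf2 and Ly6c1) and 1 higher (Gpr183), where 29.7% of all tested genes were called lower, 30.6% higher and 60.3% in either direction. Between tumor OX40minus and spleen OX40plus Tregs 4 were called higher and 2 lower, with 29.4% of all tested genes called higher, 29.6% lower and 59.0% either way. The medians of the 6 were -0.73, -0.68 and 0.54 in these comparisons, beside -0.12, -0.02 and -0.04 over all tested genes. The comparisons that involve a shared group, such as tumor OX40minus Tregs, share those samples.

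**Figure D3:**
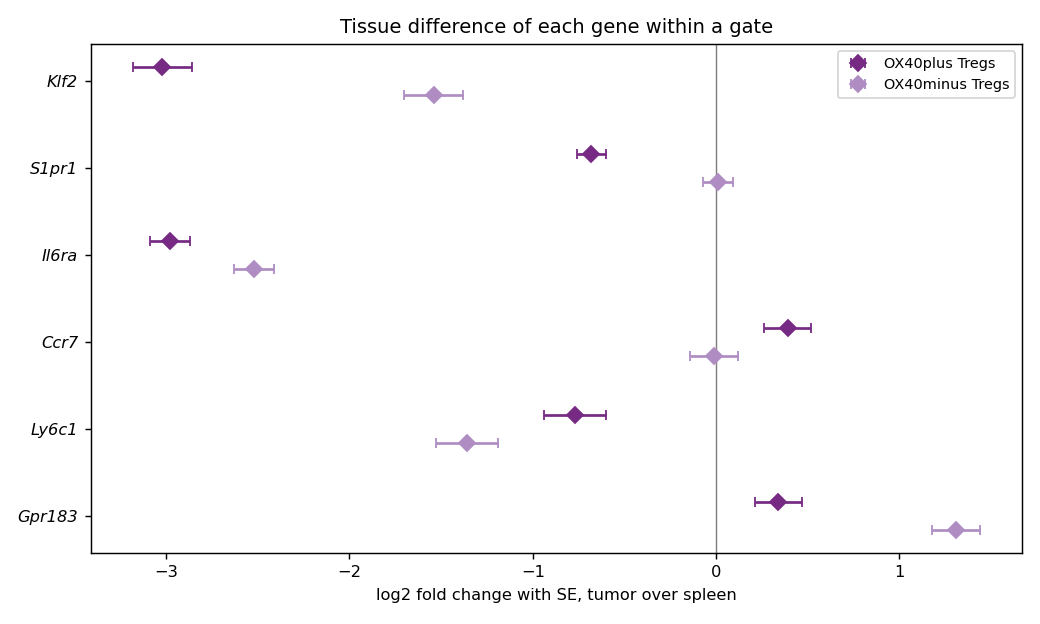
Log2 fold change of tumor over spleen (horizontal axis, limma estimate with SE) for the 6 genes in OX40plus Tregs (dark) and OX40minus Tregs (light). Klf2 and Il6ra lie far below 0 in both gates, S1pr1 and Ccr7 lie near 0 in the OX40minus gate, and Gpr183 lies above 0 in both.

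Across the 14 samples the log2 levels of Klf2 ran closest to Il6ra (Pearson r = 0.93), Ly6c1 (0.87) and S1pr1 (0.82), with r = 0.10 to Ccr7 and -0.31 to Gpr183. These correlations describe samples of 4 groups and share the group differences and the libraries. Predicted gene models, with Gm or Rik symbols, were left out when the genes most like each member were ranked. Among the other tested genes, the 8 most like Klf2 were Slfn1 (0.988), Txnip (0.985), Klf3 (0.981), Unc93b1, Prkcq, Slc25a45, Lef1 (each 0.981) and Map3k14 (0.980). Txnip restrains glucose uptake, Prkcq encodes protein kinase C theta of the T cell receptor pathway, Lef1 a partner of TCF1, and Map3k14 the kinase NIK. Txnip averaged 131 CPM in tumor OX40plus, 404 in tumor OX40minus, 529 in spleen OX40plus and 863 in spleen OX40minus Tregs. The genes most like S1pr1 were Selenop (0.982), Tmem71 (0.981) and Jakmip1 (0.977), and those most like Il6ra were Bcl2 (0.992), which encodes a survival protein, H2-T24 (0.992) and Rassf2 (0.991). Those most like Gpr183 were Zfp53, Gadd45b (each 0.950) and Prr13 (0.948). For Ccr7 the closest were Ear2 (0.911), Clec4b1 (0.889) and B3galnt1 (0.864), all under 4 CPM in every group. For Ly6c1 they were Sdc3 (0.956), Clec4a2 (0.953) and the macrophage receptor gene Csf1r (0.951), which averaged 12.1 CPM in tumor OX40plus, 45.3 in tumor OX40minus, 22.2 in spleen OX40plus and 185 in spleen OX40minus Tregs.

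Markers of other cells moved with the gates, and their part in the results was not tested. The 9 tested macrophage and monocyte markers, 8 of them called lower in the OX40plus gate of each tissue, summed to 51.9 to 65.7 CPM in tumor OX40plus, 221 to 333 in tumor OX40minus, 82.0 to 197 in spleen OX40plus and 739 to 942 in spleen OX40minus samples. From lowest to highest, this is also the order of the group means of Ly6c1. The spleen OX40plus sample with 197 CPM was that of mouse 3. Of 5 dendritic cell markers 3 were lower in tumor OX40plus Tregs (13.0 to 25.6 CPM summed, against 51.8 to 67.6 in OX40minus Tregs), with none called in spleens (14.5 to 19.1 against 43.1 to 49.0). Neutrophil markers summed to 18.1 to 45.0 against 189 to 265 CPM in tumors, with 3 of 5 lower, and to 30.7 to 32.1 against 53.0 to 72.7 CPM in spleens, with 1 of 5 lower. Endothelial markers, of which 1 of 4 tested was lower in each tissue, summed to 63.3 to 89.2 against 125 to 181 CPM in tumors and 135 to 150 against 217 to 220 CPM in spleens. NK cell markers summed to 1.88 to 10.7 against 4.78 to 15.3 CPM in tumors, where 4 of 5 were lower and Eomes was at 0 in the OX40plus gate, and to 23.7 to 31.9 against 25.0 to 32.0 CPM in spleens, where none was called. CD8 T cell markers summed to 30.1 to 45.1 against 37.5 to 68.4 CPM in tumors, with 1 of 2 lower, and to 31.9 to 35.1 against 30.8 to 43.0 CPM in spleens. In a bulk sample, fewer cells of a type and less RNA per cell cannot be told apart.

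B cell markers separated the tissues but not the gates. They summed to 0.176 to 2.29 CPM in tumor OX40plus and 0.603 to 3.90 CPM in tumor OX40minus samples, against 341 to 507 CPM in spleen OX40plus and 347 to 475 CPM in spleen OX40minus samples. All 5 tested were lower in tumors in both gates and none was called between the gates of either tissue. The 4 melanoma markers were higher in tumors in both gates (68.0 to 177 and 90.3 to 135 CPM summed in tumor OX40plus and OX40minus samples, 11.2 to 13.7 and 16.8 to 19.6 CPM in spleen OX40plus and OX40minus samples), and none was called between gates. The part of B cell or melanoma transcripts in the tissue differences of Klf2, Il6ra, Ly6c1 and Gpr183 was not tested.

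**Figure D4:**
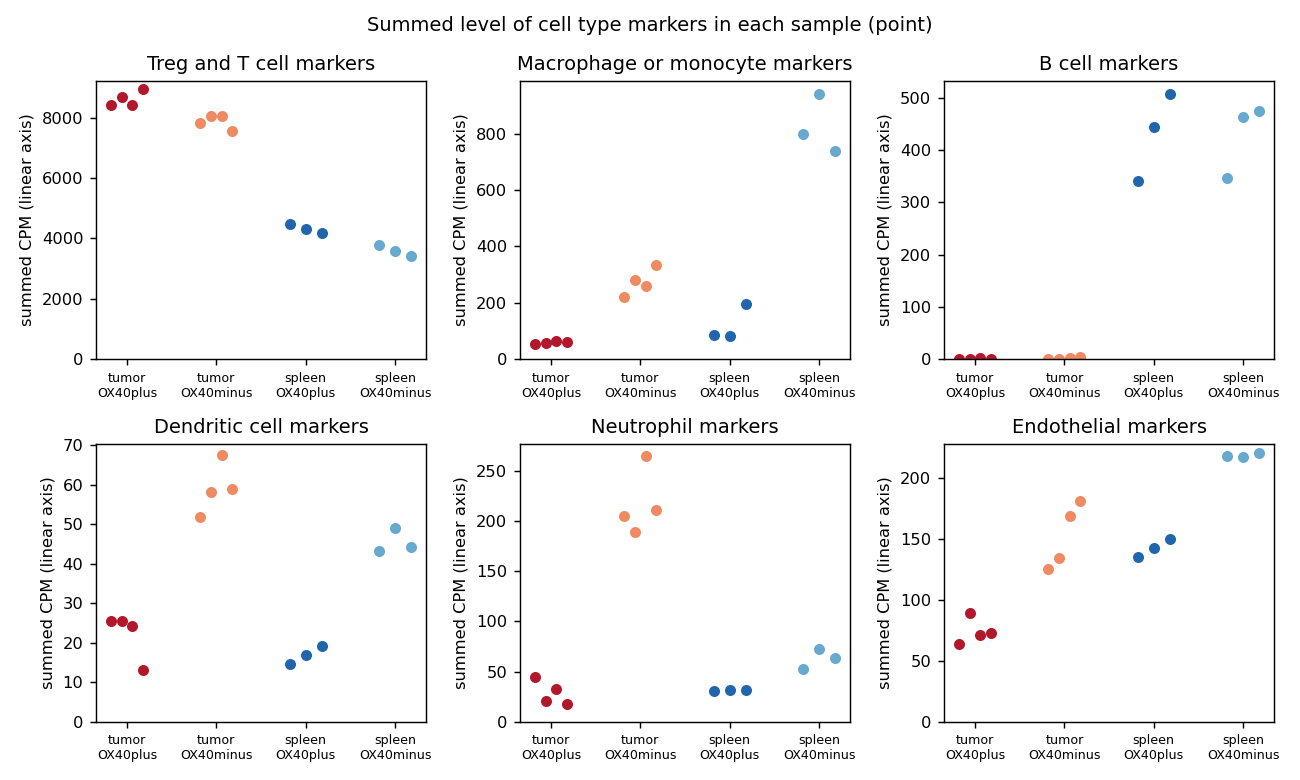
Summed CPM of the markers of 6 cell types (vertical axes, linear, from 0) in each of the 14 samples (points). From left to right the groups are the OX40plus and OX40minus gates of tumors, then those of spleens. Macrophage markers lie between 51.9 and 65.7 CPM in tumor OX40plus and between 739 and 942 CPM in spleen OX40minus samples, and B cell markers are near 0 in tumors.

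The other KLF genes showed where Klf2 stood within its family. Of the 10 tested besides Klf2, 7 were lower and none higher in tumor OX40plus Tregs. In spleen OX40plus Tregs 3 of the 10 were lower and 1 higher. Over all tested genes 20.4% were called lower and 19.1% higher in tumors, and 3.72% lower and 4.55% higher in spleens. The medians of the 10 were -0.75 and -0.38, beside -0.07 and 0.01 over all tested genes. The counts and medians of the further lists are to be read beside these same values over all tested genes. Klf3, a repressor of the family, was at 15.1 CPM in tumor OX40plus and 125 CPM in tumor OX40minus Tregs (-3.06 ± 0.14, adjusted p = 1.41e-09), and at 218 CPM in spleen OX40plus and 360 CPM in spleen OX40minus Tregs (-0.71 ± 0.17, adjusted p = 0.0113). Its tumor estimate was larger than that of Klf2, and its OX40 difference also differed between tissues (-2.35, adjusted p = 1.23e-05). Klf13 was lower in both tissues (-0.92 in tumors and -0.61 in spleens). Klf6 was lower in OX40plus Tregs of both tissues (-0.61 and -0.69) but 469 and 716 CPM in tumor OX40plus and OX40minus Tregs against 90.9 and 146 CPM in spleen OX40plus and OX40minus Tregs, the opposite tissue order to Klf2 (2.38 and 2.29, adjusted p = 1.11e-11 and 1.91e-11). Klf10, a TGF-beta inducible gene, was the 1 higher in spleen OX40plus Tregs (0.61, adjusted p = 0.0101).

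Of the 13 genes for inputs to Klf2, 5 were lower in tumor OX40plus Tregs and none was called in spleens (medians -0.36 and -0.12). Foxo1, which activates Klf2, was at 267 CPM in tumor OX40plus and 413 CPM in tumor OX40minus Tregs (-0.65 ± 0.12, adjusted p = 4.47e-04), and at 355 CPM in spleen OX40plus and 437 CPM in spleen OX40minus Tregs (-0.30 ± 0.14, adjusted p = 0.248). Mef2d, a MEF2 factor, was lower in tumors by gate (-0.64, adjusted p = 6.01e-04) with an estimate of 0.00 in spleens, and this difference was called (-0.65, adjusted p = 0.0355). The PI3-kinase genes Pik3r1 (-0.77) and Pik3cd (-0.88) were lower in tumor OX40plus Tregs, as was Foxo4 (-0.95).

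In the sphingosine phosphate axis 7 of 15 genes besides S1pr1 were lower in tumor OX40plus Tregs and 2 in spleen OX40plus Tregs (medians -0.64 and -0.17), with none higher. S1pr4, another receptor of lymphocytes, was at 51.0 CPM in tumor OX40plus and 89.4 CPM in tumor OX40minus Tregs (-0.81 ± 0.09, adjusted p = 5.15e-06), and at 216 CPM in spleen OX40plus and 342 CPM in spleen OX40minus Tregs (-0.67 ± 0.10, adjusted p = 5.91e-04). It was lower in tumors in both gates (-2.08 in OX40plus and -1.94 in OX40minus Tregs), where the S1pr1 values were -0.68 and 0.01. Cd69, whose protein binds S1PR1 and removes it from the surface, was at 259 CPM in tumor OX40plus and 531 CPM in tumor OX40minus Tregs (-1.04 ± 0.10, adjusted p = 1.72e-06), and at 68.0 CPM in spleen OX40plus and 75.1 CPM in spleen OX40minus Tregs (-0.14 ± 0.12, adjusted p = 0.677). S1pr1 and Cd69 were thus lower together in the tumor OX40plus gate, while Cd69 was higher in tumors than in spleens in both gates (1.92 and 2.82). S1pr2, a receptor that restrains migration, was lower in tumor OX40plus Tregs (-1.02) and the phosphatase gene Sgpp1 in both tissues (-0.64 and -0.40).

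Of the 11 tested homing genes besides Ccr7, 8 were lower in tumor OX40plus Tregs and 2 in spleen OX40plus Tregs, with none higher (medians -0.74 and -0.08). The integrin gene Itga4 (-1.64), the chemokine receptor genes Cxcr4 (-1.69), Ccr9 (-1.52) and Ccr6 (-2.03), and Itgb7 (-0.74) were lower in tumor OX40plus Tregs, and Ccr9 also in spleens (-1.29).

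**Figure D5:**
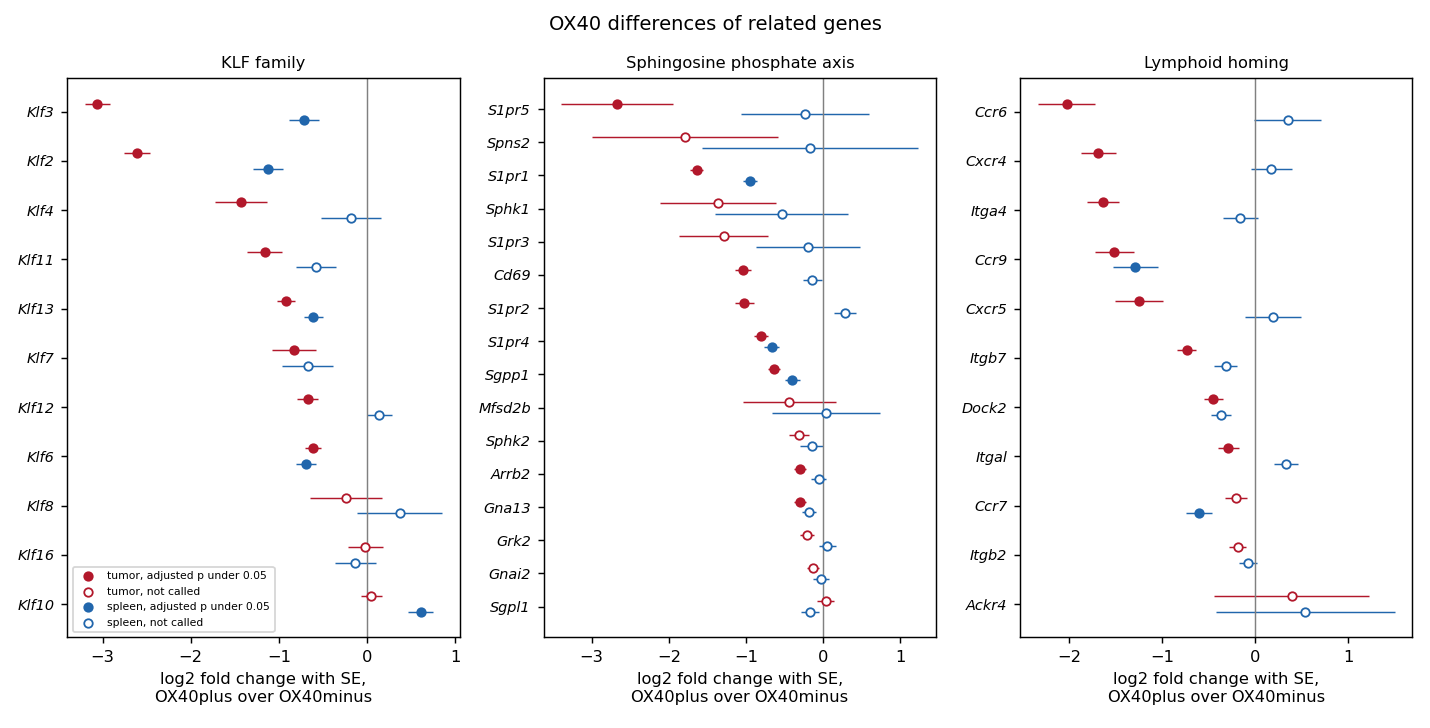
Log2 fold change of OX40plus over OX40minus Tregs (horizontal axes, limma estimate with SE) for genes of the KLF family, the sphingosine phosphate axis and lymphoid homing, in tumors (red) and spleens (blue). Filled points have an adjusted p under 0.05. Klf3 and Klf2 have the lowest tumor values of their family, and Ccr7 is called in spleens but not in tumors.

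The genes of the oxysterol pathway that were tested besides Gpr183 were Cyp7b1 and Hsd3b7, enzymes that make and degrade its ligands, and both were lower in tumor OX40plus Tregs (-1.37 and -1.06) but not called in spleens. Cyp7b1 averaged 1.58 CPM in tumor OX40plus and 3.98 CPM in tumor OX40minus Tregs, against 0.0132 and 0.0412 CPM in spleen OX40plus and OX40minus Tregs, below the 0.101 to 0.134 CPM that 3 counts are worth.

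Among 14 further genes of interleukin-7 and interleukin-6 receptors and signals, 6 were lower in tumor OX40plus Tregs and 2 in spleen OX40plus Tregs, with none higher (medians -0.21 and -0.12). Il6st, the signaling chain shared by interleukin-6 family receptors, was called in neither OX40 comparison: it was at 267 CPM in tumor OX40plus and 309 CPM in tumor OX40minus Tregs (-0.22 ± 0.13, adjusted p = 0.180), and at 352 CPM in spleen OX40plus and 381 CPM in spleen OX40minus Tregs (-0.13 ± 0.15, adjusted p = 0.831). Its group means stood in the same order as those of Il6ra, and it was lower in tumor than in spleen OX40plus Tregs (-0.40 ± 0.14, adjusted p = 0.0178). Socs3, a feedback inhibitor of interleukin-6 signals, was lower in both tissues (-1.53 ± 0.14 and -0.97 ± 0.16, adjusted p = 8.86e-07 and 0.00116). Stat5b, which carries interleukin-7 and interleukin-2 signals, was lower in both tissues (-1.06 and -0.35, adjusted p = 3.74e-07 and 0.0461). Il2rg, the common gamma chain, was lower in tumor OX40plus Tregs (-0.55, adjusted p = 1.15e-04), as was Socs1 (-0.64).

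Of 9 LY6 genes besides Ly6c1, 4 were lower in tumor OX40plus Tregs and none was called in spleens (medians -0.65 and -0.10). Ly6a, which encodes Sca-1, went the other way to Ly6c1 between tissues: it was at 3014 CPM in tumor OX40plus and 595 CPM in spleen OX40plus Tregs (2.34, adjusted p = 1.39e-10), and at 2475 CPM in tumor OX40minus and 647 CPM in spleen OX40minus Tregs (1.95, adjusted p = 1.53e-09). Its OX40 difference was not called in either tissue. Tcf7, the resting T cell factor TCF1, was at 1.87 CPM in tumor OX40plus and 30.5 CPM in tumor OX40minus Tregs (-4.19 ± 0.33, adjusted p = 2.13e-07), and at 173 CPM in spleen OX40plus and 298 CPM in spleen OX40minus Tregs (-0.78 ± 0.39, adjusted p = 0.313), the same order of groups as Klf2.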

How the data were processed

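RNA of sorted Tregs was sequenced as 28 libraries. The deposited table gives 13103 genes as log2 CPM. The deposited log2 values look like output of voom in limma (0.5 added to each count), as read from their steps. The submitters' processing notes name the build mm10 and the tools bcl2fastq 2.19, kallisto and limma. Scaling, gene filters and strand use: not given in the sources used here.

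Inverting the log2 values gave estimated counts, of which 46.6% to 51.2% per library were whole within 0.01, and CPM. Libraries sharing mouse and gate had a median chi-square per gene of 0.495 to 0.578 (sampling alone gives 0.455), against 1.42 to 13.0 between mice of a group, and were averaged into 14 samples. P-values measure the spread between these samples.

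Genes at 0.5 CPM or more in 3 or more samples (12142) were tested with limma 3.58.1 (R 4.3.3), 1 term per group over all samples, empirical Bayes with a mean-variance trend, and Benjamini-Hochberg adjustment at 0.05 over all tested genes. Every adjusted p is from this fit, and SE and 95% intervals are its moderated ones. The fit was tested on simulated data. Log2 fold changes understate changes of genes near 0. The mouse number of the sample titles was taken to name the animal that gave both gates, and was used as a block in alternatives. The block across tissues also took equal numbers in tumors and spleens as the same animal. The deviations of same-numbered samples correlated at -0.105 to 0.0563 in tumors and -0.174 to 0.144 in spleens.

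The members, the lists and the genes to be named were chosen with earlier results of these data known. From each list, up to 5 called genes per OX40 comparison were named by smallest adjusted p, besides Foxo1, Cd69, S1pr4, Klf3, Klf6, Ly6c2, Ly6a, Il6st, Il2rg and Tcf7. Gene positions are from the GRCm38 annotation, promoters from RefSeq. Each member had at least 463 estimated counts in every sample. Some genes of the lists are counted but not reported here by name.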

Additional observations from a re-analysis of the deposited data

Results flagged for a closer look

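The OX40 difference of 3 genes differed between tumors and spleens when the difference itself was tested with limma. It was -1.49 for Klf2, -0.69 for S1pr1 and -0.96 for Gpr183, tumor minus spleen on the log2 scale, lower in tumors in each case. All 4 tumor mice had lower Gpr183 in the OX40plus gate, and all 3 spleen mice had higher Gpr183 there.

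The Gpr183 level of tumor OX40plus mouse 4, 154 CPM, lay far from the other mice of its group: its gap to the nearest was 0.836 of the whole range. Chance marks about 1 in 20 groups in this way, and 12 groups of 4 samples were examined. Without this sample the Gpr183 difference between tissues was -1.09 (adjusted p = 1.74e-04).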

How the results depend on the processing

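Each of the 6 genes was refitted in 6 contrasts under 19 to 26 alternatives, which gave 738 values, of which 701 kept their direction and their side of the threshold. A further 22 kept their direction but missed the threshold, 5 passed it newly, and 10 changed sign. All 10 were differences between tumor and spleen OX40minus Tregs that were called under no setting. Over the 19 alternatives for that comparison the estimates ran from -0.03 to 0.04 for S1pr1 and from -0.06 to 0.07 for Ccr7. S1pr1 was at -0.00061 with the rep1 libraries alone, -0.02 with relative log expression scaling, -0.02 with the CPM of each sample scaled to the same total, -0.0021 with the mouse number across tissues as a replicate block, -0.03 without tumor OX40minus mouse 3 and -0.02 without spleen OX40minus mouse 1. Ccr7 was at 0.0025 with the rep2 libraries alone, 0.02 without tumor OX40minus mouse 1 or mouse 4, and 0.07 without spleen OX40minus mouse 1. Leaving out single samples gave 3 to 5 genes called in the test between the tissues' OX40 differences, and the cause was not tested. The number called stayed at 5 in tumors and was 4 or 5 in spleens. The replicate block changed the call of 1 of 54 values, Gpr183 between tissues in OX40plus Tregs (0.29, adjusted p = 0.0648). Over all genes, the spleen comparison called 1005 genes, but 1866 with only its groups in the fit, 651 without spleen OX40plus mouse 1 and 652 without spleen OX40minus mouse 2. The test between tissues called 1383, but 783 and 845 without those samples. Scaling moved the median of all genes by at most 0.10 in size. With 3 or 4 mice per group, small differences such as those of Ccr7 are the least certain.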
